A study of Homo sapiens with 18 samples.

Results

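The U1, U2 and U4 small nuclear RNA (snRNA) genes were examined by ChIP-seq for RNA polymerase II (Pol II) that carries the serine 5 phosphate (Ser5) on its C-terminal repeats, a form enriched where transcription starts. The genes concerned were RNU1-1, RNU1-2, RNU2-1, RNU2-2P, RNU4-1 and RNU4-2. Their regions were chosen by position in the hg19 genome, in 4 windows that hold the U1 genes of chromosome 1, the U2 array of chromosome 17, RNU2-2P on chromosome 11 and the U4 genes on chromosome 12. The windows held 18 of the 12123 measured regions. Of these, 10 were members, namely 2 at U1 genes, 6 in the U2 array window, 1 at RNU2-2P and 1 in the U4 window. The other 8 lay in the U1 window away from a U1 gene and were kept as a local comparison. The members were proposed with changes after dTAG47 already known, so their levels, fold changes and calls against DMSO are given as a description, without p-values.

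Rh30 is an alveolar rhabdomyosarcoma cell line driven by the fusion transcription factor PAX3-FOXO1. All cells used here carried PAX3-FOXO1 with an FKBP tag, by which the small molecule dTAG47 can direct the fusion protein to degradation. The groups were 500 nM dTAG47 for 2 h, 500 nM dTAG47 for 4 h and DMSO, the solvent, with 2 libraries each, called A and B after their columns. The other 12 samples of the series were made with other antibodies and were not analysed here. The labels do not say whether the tagged cells were a clone, nor whether separate cultures gave the 2 libraries of each group, so the spread between them, on which the standard errors and p-values rest, may be technical. Untagged cells given dTAG47 were not analysed here, so loss of the fusion and other effects of the compound cannot be told apart.

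The U1, U2 and U4 snRNAs are core RNAs of the major spliceosome. U1 recognises the 5′ splice site, U2 pairs with the branch point, and U4 enters paired with U6 and together with U5. Their genes are short, lack introns and are transcribed by Pol II from a promoter with a proximal sequence element, bound by the SNAPc complex, and an upstream distal sequence element that often holds an octamer bound by Oct-1. Their transcripts are not polyadenylated, and the Integrator complex cuts their 3′ ends. U1 and U2 exist in several nearly identical copies, so reads from different copies can be hard to place. The sources used here do not give how such reads were placed, and the split of counts between copies is therefore uncertain.

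The genes were tied to regions by their hg19 positions known to the nearest kilobase, since no annotation of that build was used. By a limit of 1 kb, the region at 16840341 to 16840741 on chromosome 1 belonged to RNU1-1 and that at 17222518 to 17222918 to RNU1-2. The region at 62608878 to 62609278 on chromosome 11 belonged to RNU2-2P, and that at 120729385 to 120729785 on chromosome 12 to RNU4-2. By these rounded positions, no measured region lay within 1 kb of RNU4-1, or of RNU1-3 and RNU1-4, which stand between the U1 members. For RNU4-1, in the same window as RNU4-2, the rounding leaves this unsettled. Reads from RNU4-1 may also be among those counted at the RNU4-2 region, which was not checked. The 6 regions of the U2 array window were tied to no single copy and are numbered 1 to 6 in order of position, so RNU2-1 has no value of its own. Unlike in the U1 window, all regions of this window were kept as members without a check of their distance to a U2 gene. Some of them may therefore lie away from a U2 gene. In RefSeq's GRCh38.p14 gene table, RNU2-2P (there RNU2-2, 191 bases long) overlaps the span of WDR74. RNU4-2 and RNU4-1 (145 bases each) overlap that of SIRT4. ChIP counts carry no strand, so Pol II on an snRNA gene and Pol II on such an overlapping gene cannot be told apart.

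On the upstream side of RNU4-2 lies a window for which RefSeq gives a sequence. The other members were not searched for such a window. RNU4-2 overlaps the span of SIRT4, so the SIRT4 start used for this window need not be the only one. The window is listed as a promoter window of SIRT4 on the opposite strand, from 250 bases before to 50 bases after that start. It is shown because it lies directly beside RNU4-2, a member with 2.52-fold the DMSO signal at 2 h. The build is GRCh38.p14 and not that of the counts, so the measured region was not placed on it. The window is chr12:120291939-120292238, plus strand, 5′ to 3′, and capitals mark the octamer ATGCAAAT.

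SIRT4 window beside RNU4-2: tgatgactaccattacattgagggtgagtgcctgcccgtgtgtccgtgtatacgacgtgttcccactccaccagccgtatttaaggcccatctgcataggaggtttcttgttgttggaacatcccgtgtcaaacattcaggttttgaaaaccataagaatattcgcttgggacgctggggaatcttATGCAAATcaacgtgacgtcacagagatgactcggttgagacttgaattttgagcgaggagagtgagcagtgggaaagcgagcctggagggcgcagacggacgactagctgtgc

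The octamer stood at bases 187 to 194 of this window and was the only match on either strand. ATGCAAAT, searched on both strands, was found in 620 of 34943 RefSeq promoter windows of the same length, or 1.77%. The match is a description of the letters and not a measured binding site.

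The libraries held 1445058 and 1343568 counts at 2 h, 1585579 and 962251 at 4 h, and 1792013 and 1430934 in DMSO, for A and B. Levels are given as TMM-scaled CPM, which puts the libraries on a common depth. All regions have the same length, so levels need no correction for length. Comparison of levels between regions is still limited by the uncertain placement of reads from nearly identical copies. A region was called when its adjusted p was under 0.05 in edgeR's quasi-likelihood test over all 12123 regions. The 3 regions with the most counts, which are not members, took 2.61% and 3.21% of counts at 2 h, 2.61% and 4.17% at 4 h, and 1.77% and 2.61% in DMSO. With that share as a covariate, an alternative chosen after the data had been seen, the 4 regions at named snRNA genes and regions 1, 3 and 4 of the array were called higher at each time.

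Ser5 Pol II was higher after dTAG47 at the 4 regions tied to an snRNA gene and at part of the U2 array window. At 2 h, 7 of the 10 members were called higher and 0 lower, where 2.22% of all regions were called higher and 0.396% lower. At 4 h, 6 of the 10 were called higher and 0 lower, against 1.52% and 0.487% of all regions. At an unadjusted p under 0.05 the members counted 7 higher at each time and 0 lower, and DESeq2 and limma-voom also called 7 higher and 0 lower at each time. Both dTAG47 libraries lay above both DMSO libraries at 7 of the 10 members at each time, an arrangement held by 21.9% of all regions at 2 h and 20.2% at 4 h. At 0 of the 10 they lay below, against 21.8% and 20.6% of all regions. In the members' median the log2 fold change was 0.85 at 2 h and 0.79 at 4 h, beside -0.01 at each time over all regions. Nothing is read from these shares, because the members were chosen knowing this contrast, and the contrasts at 2 h and 4 h share their DMSO libraries.

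**Figure D1:**
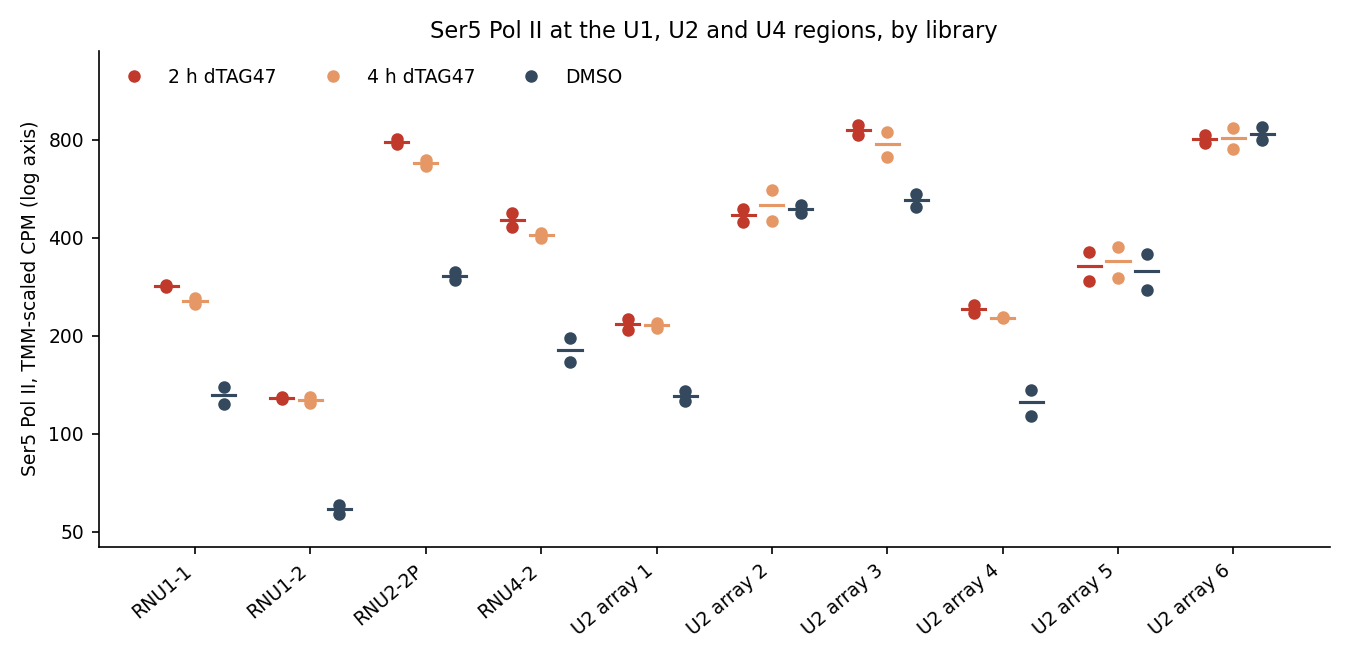
TMM-scaled CPM of Ser5 Pol II (log axis) at the 10 member regions, with a point for each library and a line at the mean of the 2 libraries of a group. At the 4 named genes and at array regions 1, 3 and 4 the dTAG47 points lie above the DMSO points, and at array regions 2, 5 and 6 the groups overlap.

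RNU1-1 encodes U1, the most abundant spliceosomal snRNA. Its region had 281 and 286 CPM at 2 h, 250.2 and 261 CPM at 4 h, against 139 and 123 CPM in DMSO. The 4 dTAG47 libraries all lay above the DMSO libraries, and the 2 h libraries above the 4 h libraries. The level was 2.15-fold that of DMSO at 2 h (log2 fold change 1.11, SE 0.15) and 1.94-fold at 4 h (0.96, SE 0.15).

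RNU1-2, the other U1 gene with a measured region, lay 382.2 kb from RNU1-1. It had the lowest mean signal of the members in each group and rested on 185 and 168 raw counts at 2 h, 205 and 117 at 4 h, and 112 and 83 in DMSO. The levels were 129 and 128 CPM at 2 h, 129 and 125 CPM at 4 h, against 60.5 and 56.8 CPM in DMSO. Its libraries at 2 h and 4 h overlapped, and all 4 lay above DMSO. The rise was 2.18-fold at 2 h (log2 fold change 1.13, SE 0.15) and 2.16-fold at 4 h (1.11, SE 0.15). Within a library, RNU1-1 had 2.18 and 2.24 times the counts of RNU1-2 at 2 h, 1.94 and 2.09 times at 4 h, and 2.30 and 2.17 times in DMSO. The 2 h ratios lay within the range of the DMSO ratios, and the 4 h ratios were the lowest of the 6.

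RNU2-2P encodes a U2 snRNA outside the array. Its region had 805 and 774 CPM at 2 h, 663 and 694 CPM at 4 h, against 298 and 313 CPM in DMSO. All dTAG47 libraries exceeded DMSO, and the 2 h libraries exceeded the 4 h libraries. It was 2.59-fold the DMSO level at 2 h (log2 fold change 1.37, SE 0.16), the largest fold among the members, and 2.22-fold at 4 h (1.15, SE 0.16). Among all 12123 regions its mean level ranked 26 from the top at 2 h, 37 at 4 h and 136 in DMSO.

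RNU4-2 encodes U4, the partner of U6 in the tri-snRNP. Its region had 478 and 431 CPM at 2 h, 400.1 and 412 CPM at 4 h, against 166 and 196 CPM in DMSO. The dTAG47 libraries lay above DMSO without overlap, with 2 h above 4 h. The rise was 2.52-fold at 2 h (log2 fold change 1.33, SE 0.15) and 2.25-fold at 4 h (1.17, SE 0.16). RNU2-2P had 1.69 and 1.80 times the counts of RNU4-2 at 2 h, 1.66 and 1.68 times at 4 h, and 1.79 and 1.60 times in DMSO, so their proportion to each other overlapped between the groups.

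**Figure D2:**
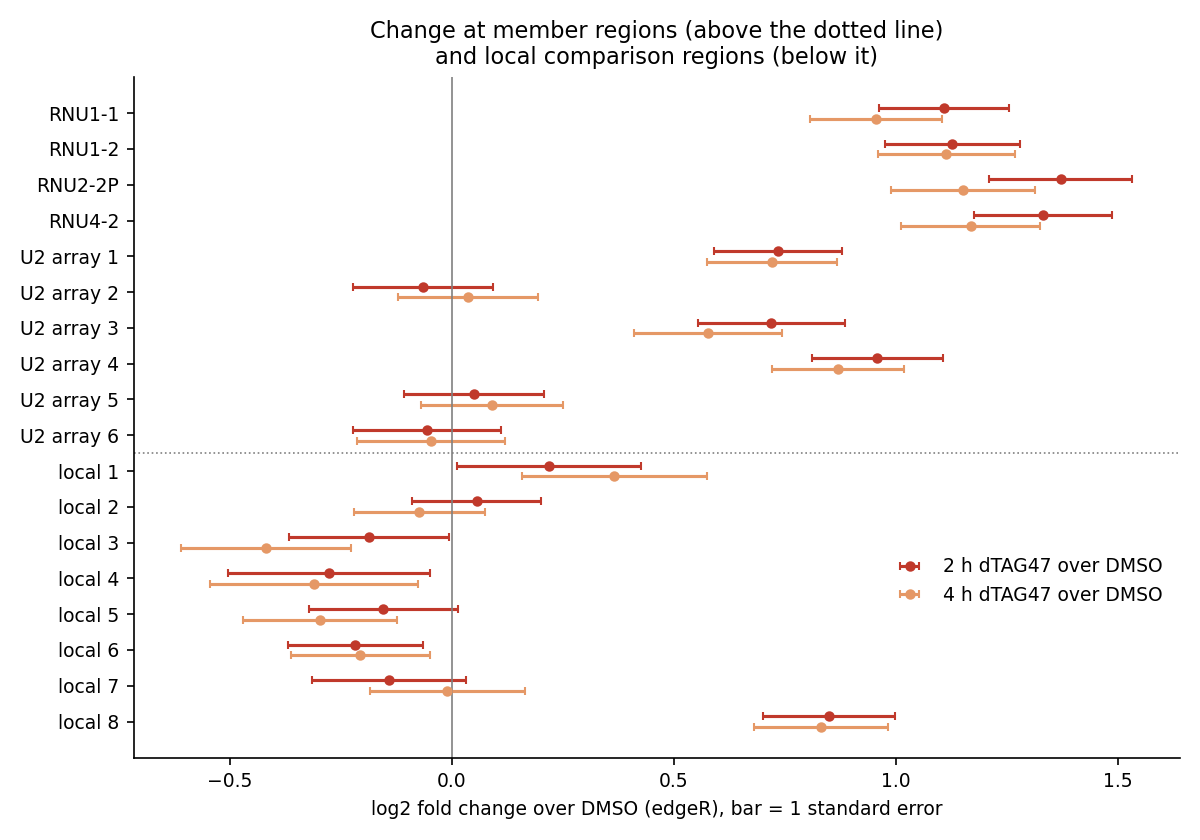
Log2 fold change over DMSO from edgeR at 2 h (dark) and 4 h (light) with 1 standard error, for the 10 members above the dotted line and the 8 local comparison regions below it. The named genes lie between 0.96 and 1.37, the array splits into 3 regions above 0.5 and 3 near 0, and local region 8 stands apart from the other local regions.

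The U2 array window on chromosome 17 was not uniform. U2 genes stand there as a tandem repeat, and RefSeq's GRCh38.p14 table lists 14 snRNA genes from RNU2-1 up to the pseudogene RNU2-4P. Regions 1, 3 and 4 were higher after dTAG47, and regions 2, 5 and 6 were not called at either time. Regions of these 2 kinds lay close together, with region 2 only 7.7 kb from region 1. Which regions of either kind lie at a U2 gene was not checked.

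Region 1, at 41393142 to 41393542, had 226 and 208 CPM at 2 h, 211 and 219 CPM at 4 h, against 126 and 135 CPM in DMSO. Region 4, at 41445067 to 41445467, had 248 and 235 CPM at 2 h, 226 and 228 CPM at 4 h, against 113 and 136 CPM in DMSO. At both regions the dTAG47 libraries lay above DMSO without overlap. The log2 fold change of region 1 was 0.73 (SE 0.14) at 2 h and 0.72 (SE 0.15) at 4 h, and that of region 4 was 0.96 (SE 0.15) and 0.87 (SE 0.15).

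Region 3, at 41438303 to 41438703, had the highest mean level of the members at 2 h, with 888 and 826 CPM at 2 h, 845 and 705 CPM at 4 h, against 545 and 496 CPM in DMSO. Its dTAG47 libraries also lay above DMSO, with the widest spread at 4 h. The log2 fold change was 0.72 (SE 0.17) at 2 h, which was called, and 0.58 (SE 0.17) at 4 h, which was not. The 4 h value passed the threshold without 4 h library B (0.71), with DESeq2 (0.58), with limma-voom (0.57), with a block by column letter (0.58) and with the covariate (0.77). The 2 h call ended without 2 h library A (0.67) or B (0.78), and the 2 h call of region 1 ended without 2 h library A (0.68).

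Region 2, at 41400793 to 41401193, had 446 and 491 CPM at 2 h, 449 and 559 CPM at 4 h, against 477 and 503 CPM in DMSO. Region 5, at 41463662 to 41464062, had 294 and 360.3 CPM at 2 h, 301 and 375 CPM at 4 h, against 276 and 357 CPM in DMSO. Region 6, at 41465958 to 41466358, had 781 and 826 CPM at 2 h, 748 and 871 CPM at 4 h, against 796 and 875 CPM in DMSO. In these 3 regions the groups overlapped, and their log2 fold changes ran from -0.06 to 0.05 at 2 h and from -0.05 to 0.09 at 4 h (SE 0.16 to 0.17). Their signs changed under some alternatives. A change well above the standard error can also go uncalled, as at region 3 at 4 h (log2 fold change 0.58, SE 0.17).

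The split within the array can be read inside a library, free of the scaling between libraries. The counts of the 4 regions with a positive log2 fold change at 2 h (1, 3, 4 and 5), divided by those of regions 2 and 6, gave 1.35 and 1.24 at 2 h, 1.32 and 1.07 at 4 h, and 0.833 and 0.816 in DMSO. All 4 dTAG47 libraries lay above DMSO, with 4 h library B the closest. The division was made by the sign of the 2 h change, so the ratio describes that choice and tests nothing.

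**Figure D3:**
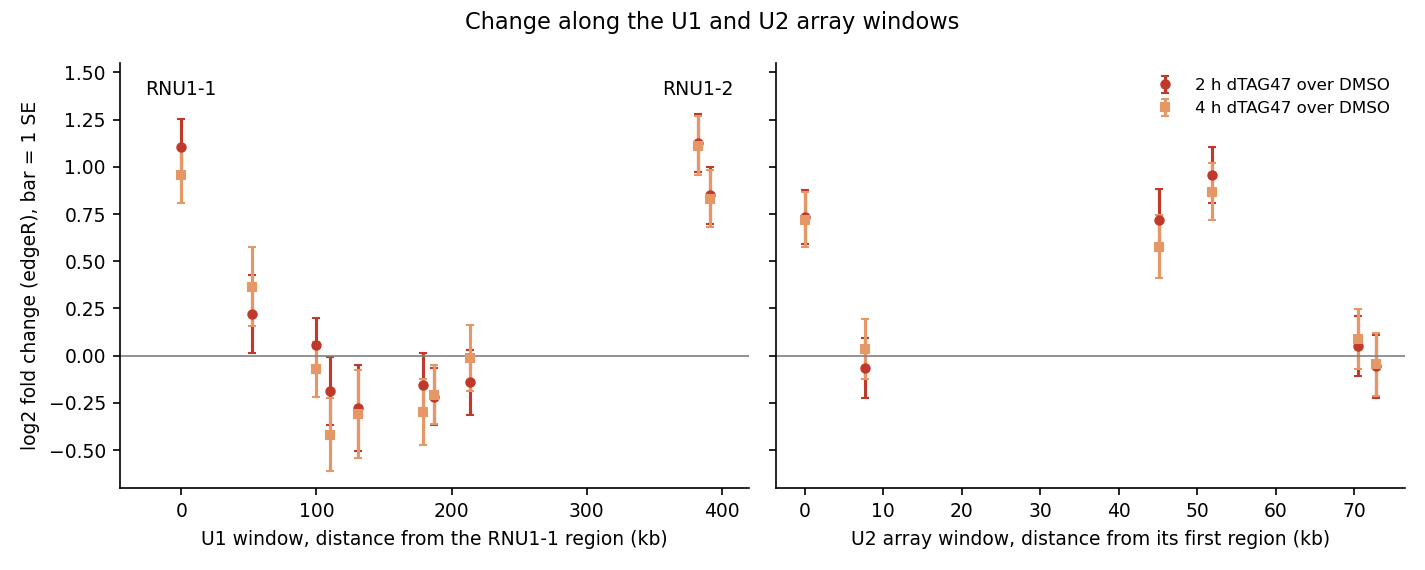
Log2 fold change over DMSO (edgeR, with 1 standard error) against distance in kb along the U1 window, from the RNU1-1 region, and along the U2 array window, from its first region. In the U1 window the high points are RNU1-1, RNU1-2 and the region 9.0 kb beyond RNU1-2, and in the U2 window high and near-0 points are interspersed.

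In the U1 window, none of the local regions between the U1 genes was called at either time. They lay from 52.7 to 213.6 kb beyond RNU1-1. RefSeq's table lists 35 genes between RNU1-1 and RNU1-2 in GRCh38.p14, among them NBPF1, CROCCP2, MST1P2 and 8 tRNA genes. The first 7 local regions had log2 fold changes from -0.28 to 0.22 at 2 h and from -0.42 to 0.37 at 4 h, with standard errors from 0.15 to 0.23, and 0 of the 7 were called. At an unadjusted p under 0.05 they counted 0 at 2 h and 1 lower at 4 h, and limma-voom called 0. For 5 of the 7, DESeq2 returned no adjusted p at either time, and it called neither of the other two.

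The strongest of the 7, at 16939754 to 16940154, had 255 and 252 CPM at 2 h, 252 and 208 CPM at 4 h, against 252 and 235 CPM in DMSO. Its level was above that of RNU1-1 in DMSO and below it in each dTAG47 library other than 4 h library A, where the values were 252 and 250.2 CPM. The groups overlapped. The other 6 had mean levels between 35.0 and 77.7 CPM in the dTAG47 groups, and between 39.1 and 89.9 CPM in DMSO.

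The eighth local region, at 17231534 to 17231934, was the exception. It lay 9.0 kb beyond RNU1-2, was tied to no gene, and was called higher at each time. It had 352 and 317 CPM at 2 h, 326 and 336 CPM at 4 h, against 198 and 172 CPM in DMSO, with all dTAG47 libraries above DMSO. Its log2 fold change was 0.85 (SE 0.15) at 2 h and 0.83 (SE 0.15) at 4 h. By the 1 kb limit it stayed a local comparison region, and a limit of 5 kb did not change that.

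Inside each library, the summed counts of the U1 gene regions divided by those of the 8 local regions gave 0.441 and 0.458 at 2 h, 0.423 and 0.439 at 4 h, and 0.245 and 0.234 in DMSO. The dTAG47 libraries did not overlap DMSO. The mean ratio was 0.450 ± 0.0119 at 2 h, 0.431 ± 0.0113 at 4 h and 0.240 ± 0.00752 in DMSO (SD, n = 2 each), which is 1.88-fold over DMSO at 2 h and 1.80-fold at 4 h. Without the eighth local region, left out after its values had been seen, the ratio gave 0.709 and 0.706 at 2 h, 0.664 and 0.71 at 4 h, and 0.324 and 0.302 in DMSO, or 2.26-fold and 2.19-fold. With 2 libraries against 2, an exact two-sided permutation test could give no p below 0.333, and none was made.

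**Figure D4:**
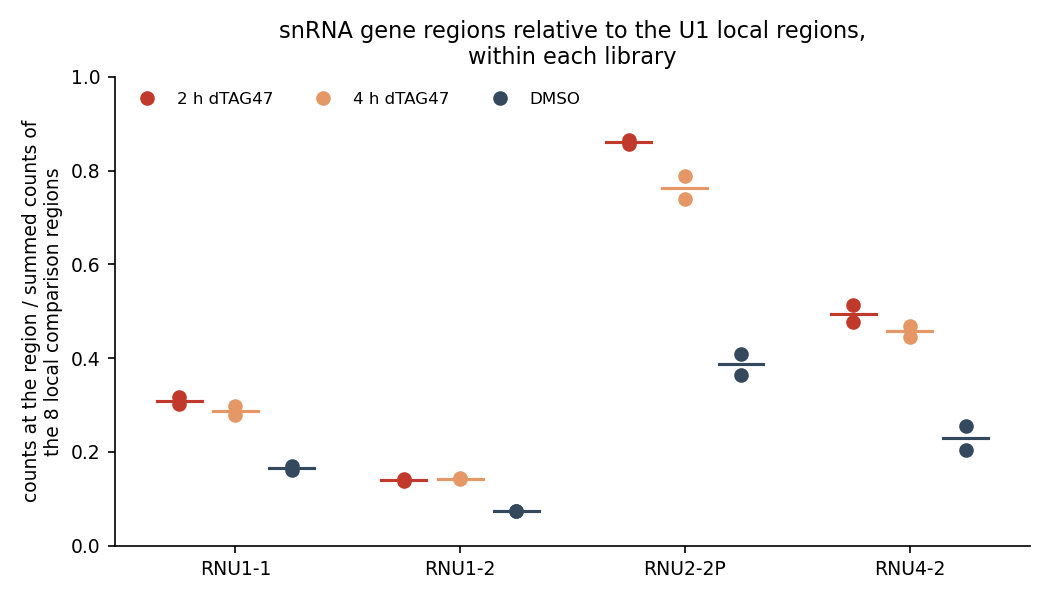
Counts at each named snRNA gene region divided by the summed counts of the 8 local comparison regions of the U1 window in the same library, with a point per library and a line at the group mean. Each gene has its 4 dTAG47 points above its DMSO points. The denominator includes local region 8, which was itself called higher at each time.

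The same denominator showed RNU2-2P at 0.865 and 0.857 at 2 h, 0.739 and 0.789 at 4 h, and 0.365 and 0.408 in DMSO. RNU4-2 stood at 0.513 and 0.477 at 2 h, 0.446 and 0.469 at 4 h, and 0.203 and 0.256 in DMSO. On this scale, which uses no factor between libraries, RNU2-2P was 2.23-fold and RNU4-2 2.16-fold over DMSO at 2 h, and 1.98-fold and 1.99-fold at 4 h. The denominator includes the eighth local region, itself 1.80-fold the DMSO level at 2 h and 1.78-fold at 4 h. These folds are therefore lower than they would be without it.

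In order of the 2 h log2 fold change the members ran RNU2-2P, RNU4-2, RNU1-2, RNU1-1, then array regions 4, 1, 3, 5, 6 and 2. Neighbours in this order differed by less than the standard error of their difference, except regions 4 and 1 (by 0.22, standard error 0.21) and regions 3 and 5 (by 0.67, 0.23). At 4 h the order began RNU4-2, RNU2-2P, RNU1-2, RNU1-1, and of the neighbours only regions 3 and 5 were further apart than that error (by 0.49, 0.23). In level, RNU2-2P stood at 789 ± 22.1 CPM at 2 h (SD, n = 2), and its libraries overlapped those of array region 6 at 803 ± 32.3 CPM. Region 6 was highest in DMSO at 835 ± 55.6 CPM and RNU1-2 lowest at 58.6 ± 2.60 CPM (SD, n = 2). RNU1-1 and array regions 1 and 4 could not be ordered in DMSO, at 131 ± 11.4, 131 ± 5.98 and 125 ± 16.1 CPM, and nor could region 5 and RNU2-2P, at 316 ± 56.6 and 305 ± 11.2 CPM.

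The direct comparison of 4 h with 2 h asked whether the difference from DMSO had moved. None of the 10 members was called, with 0 higher and 0 lower in edgeR (adjusted p = 0.998 for each), as for 0% of all regions. At an unadjusted p under 0.05 they also counted 0, and DESeq2 and limma-voom called 0. Of the 10 members, 4 had both 4 h libraries below both 2 h libraries and 6 overlapped, where 16.4% of all regions lay below. The 4 were RNU1-1, RNU2-2P, RNU4-2 and array region 4. The log2 fold change of 4 h over 2 h was -0.22 (SE 0.16) at RNU2-2P, -0.16 (SE 0.15) at RNU4-2, -0.15 (SE 0.14) at RNU1-1 and -0.01 (SE 0.14) at RNU1-2. The arrangement of higher 4 h libraries, held by 15.1% of all regions, was found at 0 of the 10 members. A p that misses the threshold does not make 4 h and 2 h alike.

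The measured regions of other spliceosomal snRNA genes are given beside the members, without a test, since they share the same libraries and were seen before. The U5 regions on chromosome 15, tied to RNU5A-1 and RNU5B-1 as a locus, had log2 fold changes of 1.87 and 1.5 at 2 h and 1.58 and 1.31 at 4 h. RNU11, which encodes U11 of the minor spliceosome, had 1.46 at 2 h and 1.24 at 4 h. RNU4ATAC, the minor spliceosome's counterpart of U4, had 1.36 and 1.17, beside 1.33 and 1.17 for RNU4-2. The U1 genes had the smaller values of this set, at 1.11 and 1.13 at 2 h.

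The profile of the 4 named gene regions over the 6 libraries, as the mean of their centred log2 CPM, was compared with the 10351 regions outside the windows that averaged at least 50 counts. The 5 most alike by Pearson's r over 6 libraries were the U5 region at 65597070 on chromosome 15 (0.9998), regions at 45196343 (0.9991) and 149223777 (0.999) on chromosome 1, the U5 region at 65588533 (0.998), and a region at 8076517 on chromosome 17 (0.996). The RNU11 region ranked 13 and the RNU4ATAC region 15. With 6 libraries in 3 groups, most of such an r comes from the difference between dTAG47 and DMSO, and it describes likeness only.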

How the data were processed

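The authors deposited raw counts of reads per region for 6 Ser5 ChIP-seq libraries. Per the submitters' processing notes, the tools were Bowtie2, MACS2, DiffBind, DESeq2 and Trimmomatic 0.32, and the builds hg19 and dm3 (fly). The sources used here do not give how regions were called, how duplicates and multiply mapped reads were treated or what fly reads served for. No fly reads or whole-library totals were used here, so a change of all regions by 1 factor would not be seen. Columns were tied to groups by name, not to replicate numbers. Libraries of a group differed beyond sampling noise (chi-square per degree of freedom 1.5 to 2.33).

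All 12123 regions were fitted with edgeR 4.0.16 in R 4.3.3 (quasi-likelihood, TMM, all 6 libraries, Benjamini-Hochberg). The filter for low counts removed 0 regions. The standard error is the log2 fold change divided by the square root of F. DESeq2 1.42.0, limma-voom (limma 3.58.1), other scalings, filters and thresholds and leaving out each library were alternatives. Every member region is named, and most local comparison regions are given only as a range of values. Members, gene list and compared genes were chosen with earlier results of these data known. A planned list of snRNA-processing genes and a check of muscle markers needed an hg19 annotation and were not run. Sequences and gene neighbours are from RefSeq (GRCh38.p14), where 6 of 6 members matched by symbol or synonym.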

Additional observations from a re-analysis of the deposited data

How the results depend on the processing

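Under 17 alternatives, members called higher numbered 5 to 7 at 2 h (7 in the fit as reported) and 6 to 7 at 4 h (6 as reported), and 0 were called lower. Leaving out 1 library gave 5 to 7 at 2 h and 6 to 7 at 4 h. The 4 named gene regions were called higher under each alternative, with log2 fold changes from 1.03 (RNU1-1) to 1.46 (RNU4-2) at 2 h and from 0.89 (RNU1-1) to 1.30 (RNU4-2) at 4 h. The U1 gene over local ratio stayed between 1.83 and 1.92 at 2 h and between 1.76 and 1.84 at 4 h without 1 library. For 4 h against 2 h, 0 members were called in any fit. A replicate block by column letter called 7 members higher at each time, at 4 h adding array region 3 (log2 fold change 0.58). Deviations of A libraries from their group means correlated at 0.22 (DMSO and 2 h), 0.28 (DMSO and 4 h) and 0.16 (2 h and 4 h) across regions. In each group library A also had more counts than B and a smaller share in the 3 highest regions. Whether the correlations reflect this or a pairing by letter was not tested. The labels do not say what the letters mark or tie them to the replicate numbers, so the fit without the block was kept. With 2 libraries per group, members near the threshold, such as array region 3, moved across it.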
